A study of Mus musculus with 12 samples.

Results

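Cytochrome P450 genes, 94 of the 52636 mouse genes in the deposited table, were described across hepatocytes of low and high fat content from wild-type (WT) mice and mice with a knockout (KO) of Ptprk, which encodes a receptor-type protein tyrosine phosphatase. Members were all rows whose gene name is Cyp followed by digits, letters and digits, such as Cyp2e1. The rule left out Cyp51, the pseudogenes whose names carry -ps and other rows, 26 in all. All 94 members are annotated as protein-coding, and they fall into 16 families and 39 subfamilies.

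Cytochrome P450 enzymes are heme proteins, most of them anchored in the endoplasmic reticulum, that insert an oxygen atom into small lipophilic molecules with electrons passed on by P450 oxidoreductase. In liver, members of the Cyp1, Cyp2 and Cyp3 families clear drugs and toxins, while others make bile acids from cholesterol, degrade retinoic acid or hydroxylate fatty acids. Many P450 genes are zonated along the liver lobule: Cyp2e1 is a textbook gene of hepatocytes around the central vein, and Cyp2f2 one of hepatocytes around the portal vein.

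Hepatocytes came from steatotic livers, and a Percoll gradient with differential centrifugation was used to split them into low-fat and high-fat fractions and to deplete dead and non-parenchymal cells. Each of 6 mice, 3 WT and 3 KO, gave 1 low-fat and 1 high-fat library of polyA RNA, so 12 libraries form 4 groups of 3, by genotype and fraction. All groups share the steatotic state; strain, age, the cause of steatosis, the KO allele and the cells in which it acts are not given in the sources used here. The mice are called here mouse 1, 2 and 3 of each genotype, after the replicate numbers. In the labels these are WT1, WT5 and WT6 and KO2, KO4 and KO6, so that KO mouse 1 is the animal labelled KO2. The labels state no link between a WT and a KO mouse with the same replicate number.

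Values are reads per 20 M, and estimated depth ranged from 15.1 M to 25.02 M reads per library, so that 3 reads correspond to 2.40 to 3.98 reads per 20 M. This floor covers counting error only. Ptprk itself had 2174 to 2883 reads per 20 M in the WT libraries and 1117 to 1364 in the KO libraries, a decrease without loss of the transcript. Hepatocyte markers other than P450 genes summed to between 363199 and 433889 in every library. Marker sums of other liver cells were higher in the high-fat libraries: the 8 stellate cell markers summed to 135 to 680 in low-fat and 2052 to 3693 in high-fat libraries, the 9 Kupffer cell markers to 470 to 1341 and 2109 to 11426, and the 8 endothelial markers to 1150 to 3211 and 5030 to 14580. The Kupffer sum was highest in the high-fat libraries of mouse 1 of both genotypes, at 11426 in WT and 9919 in KO. Of the 5 cholangiocyte markers, Krt19, Krt7 and Epcam had at most 7, 5 and 6 reads per 20 M. The others were higher, with 126 to 381 for Sox9 and 64 to 272 for Spp1.

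Of the 94 P450 genes, 70 had a value above 0 in all 12 libraries and 5 were at 0 in all 12: Cyp11b1, Cyp19a1, Cyp24a1, Cyp2b23 and Cyp4a29. The mean of the 12 libraries was below 10 reads per 20 M for 26 members, at least 1000 for 34 and at least 10000 for 11. Per kb of annotated exon, the most abundant transcript was Cyp2e1, which oxidizes ethanol and acetaminophen, at 23213 reads per kb per 20 M. It was followed by Cyp2f2, known for activating naphthalene, at 15207, and by the drug-metabolizing Cyp2d26 at 10440, Cyp2d10 at 8915 and Cyp2d9 at 8597. Next came Cyp3a25 at 5053, the arachidonic acid epoxygenase Cyp2j5 at 5015, the bile acid synthesis enzyme Cyp8b1 at 4958, Cyp2c70, which makes muricholic acids, at 4269, and Cyp2c29 at 4031. This order depends on the length used, the union of all annotated exons. For Cyp2a12 that union is 3457 bases, while its longest protein-coding transcript has 1681. Cyp3a11 and Cyp2a12, outside this order, averaged 20336 and 13529 reads per 20 M before division by length.

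Promoters of 4 members that were higher in the high-fat fraction and of Cyp2f2, which was lower there, are given because these genes carry the fat-fraction comparison below. They are the 250 bases before the annotated start, from RefSeq on GRCm38.p6, printed 5′ to 3′ on the gene's strand. Capitals mark letters matching 1 of 5 motifs: the TATA box TATAAA (gene strand only), and on both strands the HNF4 site CAAAGTCCA, the TCF/LEF site ATCAAAG, the dioxin response element core TGCGTG and the nuclear receptor motif AGGTCA. The positions are chr7:140763569-140763818 (plus strand) for Cyp2e1, chr9:57683656-57683905 (minus) for Cyp1a2, chr5:145879855-145880104 (minus) for Cyp3a11, chr19:39286835-39287084 (plus) for Cyp2c29 and chr7:27119705-27119954 (plus) for Cyp2f2.
Cyp2e1: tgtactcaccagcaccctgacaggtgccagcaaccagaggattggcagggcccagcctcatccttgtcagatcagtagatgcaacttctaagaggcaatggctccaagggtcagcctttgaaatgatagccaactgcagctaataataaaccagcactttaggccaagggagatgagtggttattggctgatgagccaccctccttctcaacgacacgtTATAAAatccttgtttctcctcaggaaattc
Cyp1a2: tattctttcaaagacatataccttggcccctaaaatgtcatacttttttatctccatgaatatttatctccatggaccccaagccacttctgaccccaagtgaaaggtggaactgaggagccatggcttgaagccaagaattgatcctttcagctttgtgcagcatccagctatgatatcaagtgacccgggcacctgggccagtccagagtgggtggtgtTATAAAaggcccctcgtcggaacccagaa
Cyp3a11: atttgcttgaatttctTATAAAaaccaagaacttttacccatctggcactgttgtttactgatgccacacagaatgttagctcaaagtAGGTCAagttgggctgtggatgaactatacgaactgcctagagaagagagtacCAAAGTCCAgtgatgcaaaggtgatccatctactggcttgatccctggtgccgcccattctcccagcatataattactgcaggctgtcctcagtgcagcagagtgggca
Cyp2c29: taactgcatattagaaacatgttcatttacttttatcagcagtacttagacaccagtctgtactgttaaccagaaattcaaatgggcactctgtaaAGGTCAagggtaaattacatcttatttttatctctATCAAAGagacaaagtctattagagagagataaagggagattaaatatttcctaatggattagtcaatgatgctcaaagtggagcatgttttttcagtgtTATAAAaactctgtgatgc
Cyp2f2: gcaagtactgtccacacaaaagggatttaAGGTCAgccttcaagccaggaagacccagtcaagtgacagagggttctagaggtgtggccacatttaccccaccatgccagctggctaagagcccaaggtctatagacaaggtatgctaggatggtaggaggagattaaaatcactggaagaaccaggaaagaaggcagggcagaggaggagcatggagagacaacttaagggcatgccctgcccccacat
TATAAA began 31 bases before the start of Cyp2e1, 29 before that of Cyp1a2, 19 before that of Cyp2c29 and 234 before that of Cyp3a11, and it was not found in the Cyp2f2 window. Cyp3a11 also held the HNF4 letters, 109 bases before the start, and Cyp2c29 the TCF/LEF letters, 119 bases before. RefSeq promoters were matched by symbol for 73 of the 94 members (83 promoters). TATAAA was in 24.1% of these 83 and in 7.59% of all 32851 promoters of the same length. It was in 12 of the 17 promoters of members that were higher in the high-fat fraction with each mouse as a block (70.6%), in 5 of the 41 promoters of members tested and not called there (12.2%), and in neither of the 2 promoters of members that were lower. CAAAGTCCA was in 9 of the 83 member promoters (10.8%) against 0.384% of all promoters, and in 3 of those 17. ATCAAAG was in 3.61% of member promoters and 3.20% of all, TGCGTG in 1.20% and 6.87%, and AGGTCA in 22.9% and 14.02%. These are matches of letters, many of them in genes of common descent, and no test was made of them.

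Taken as a sum, P450 transcripts had a larger share of the reads in the high-fat fraction. Abundant genes weigh most in this sum. Cyp2e1 alone was 9.30% to 14.1% of the P450 reads in low-fat and 16.3% to 17.9% in high-fat libraries. Of the 71 members tested below, 22 had negative log2 fold changes. In WT mice the 94 genes made up 1.53% ± 0.147 of the low-fat and 1.84% ± 0.166 of the high-fat reads (SD, n = 3 libraries). In KO mice they made up 1.5% ± 0.043 and 1.83% ± 0.126 (SD, n = 3). All 6 mice had the larger share in their high-fat fraction, by 0.315 percentage points ± 0.094 (SD, n = 6; exact two-sided sign-flip permutation test, p = 0.0312, the smallest value 6 mice allow). The members were chosen with earlier results of these data known, so this p-value and the next only describe the sum. KO and WT mice differed by -0.0194 percentage points (exact two-sided permutation test on mouse means, n = 3 against 3, p = 1.0, where the smallest possible value is 0.1). In bulk RNA, more cells of a type and more RNA per cell cannot be told apart.

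Across both genotypes, 9 of the 71 P450 genes tested passed an adjusted p of 0.05 between the high-fat and low-fat fractions (12.7%, against 5.77% of the 16563 genes tested), 7 of them higher and 2 lower in high-fat. Among all genes 5.05% were called higher and 0.725% lower. A gene was tested if it had at least 10 reads per 20 M in at least 3 libraries. The other 23 members, the most abundant of which averaged 5.75 reads per 20 M, were not. Because the 2 fractions of a replicate come from 1 mouse, the same comparison was also fitted with a term for each mouse, called here the mouse block. With it 26 P450 genes passed (36.6%, against 11.0% of all genes), 20 higher and 6 lower, where all genes gave 6.76% higher and 4.26% lower. The difference had the same sign in all 6 mice for 36 of the 71 genes (50.7%, against 21.6% of all genes), 26 higher and 10 lower, where all genes gave 9.96% higher and 11.6% lower. The median log2 fold change was 0.29 for the P450 genes and -0.02 for all genes tested, and it was positive for 49 of the 71 (45.1% of all genes). With the summed stellate, Kupffer and endothelial marker level as a covariate, 0 of the 71 genes passed, and 0 of all genes. That marker level did not overlap between fractions, at a log2 of 10.8 to 12.2 in low-fat and 13.3 to 14.8 in high-fat libraries. The P450 median was then 0.37.

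**Figure D1:**
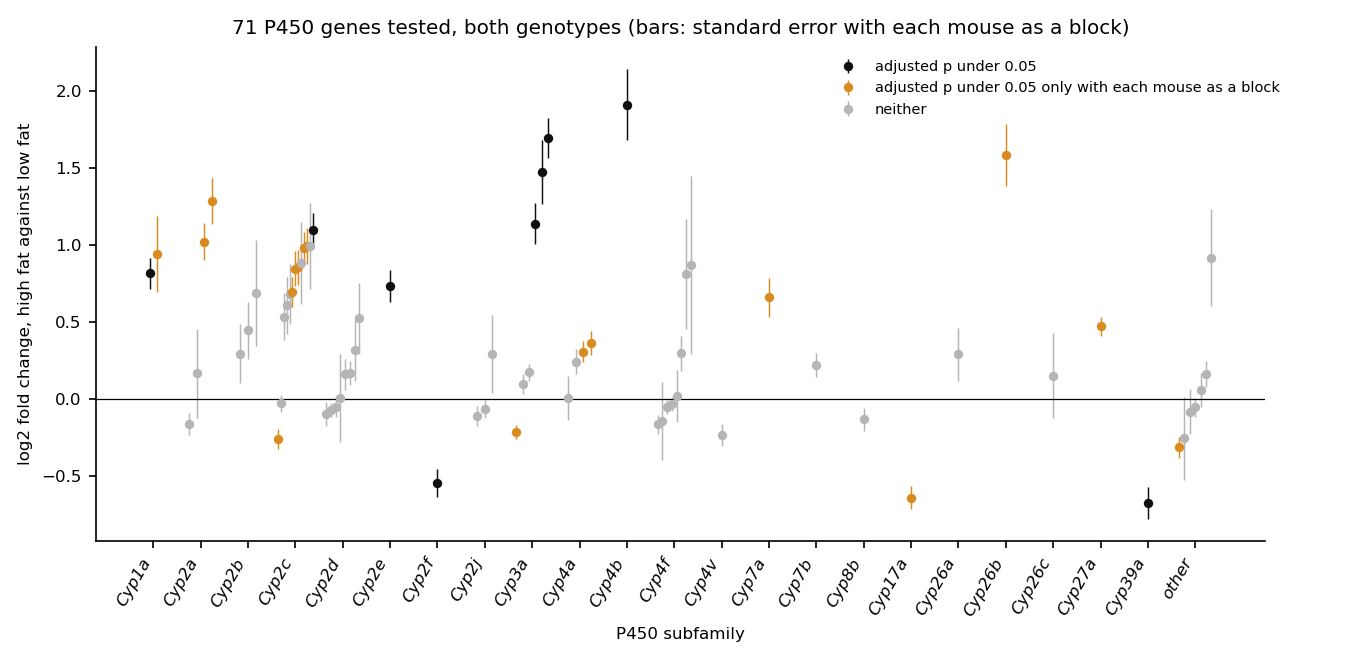
Log2 fold change of each of the 71 P450 genes tested, high-fat against low-fat over both genotypes (vertical axis), by subfamily (horizontal axis), with the standard error of the fit with the mouse block as bars. Black points are the 9 genes that passed without the block and orange points the 17 that passed only with it. Cyp4b1 (1.91) is the highest point and Cyp39a1 (-0.68) the lowest, and none of the Cyp2d or Cyp4f points is black or orange.

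The pair of zonation markers moved in opposite directions. Cyp2e1 had 25608, 38077 and 47248 reads per 20 M in the low-fat libraries of WT mice 1 to 3 and 56368, 63448 and 68163 in their high-fat libraries. In KO mice 1 to 3 it had 29647, 39451 and 42768 in low-fat and 55304, 70040 and 65014 in high-fat libraries. Each high-fat value was above every low-fat value, and the log2 fold change was 0.73 (SE 0.165, adjusted p = 0.023). Cyp2f2 fell from 39043, 33964 and 34000 to 24646, 24065 and 26422 in WT mice and from 43514, 32485 and 33343 to 27442, 23529 and 27069 in KO mice. Its fractions did not overlap either, and the log2 fold change was -0.55 (SE 0.104, adjusted p = 0.011). The ratio of Cyp2e1 to Cyp2f2 reads was 0.656 to 1.39 in the low-fat and 2.02 to 2.98 in the high-fat libraries. Leaving out single libraries moved the adjusted p of Cyp2e1 to as much as 0.064, and it passed in 7 of 12 such fits. Cyp2f2 passed in all 12.

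**Figure D2:**
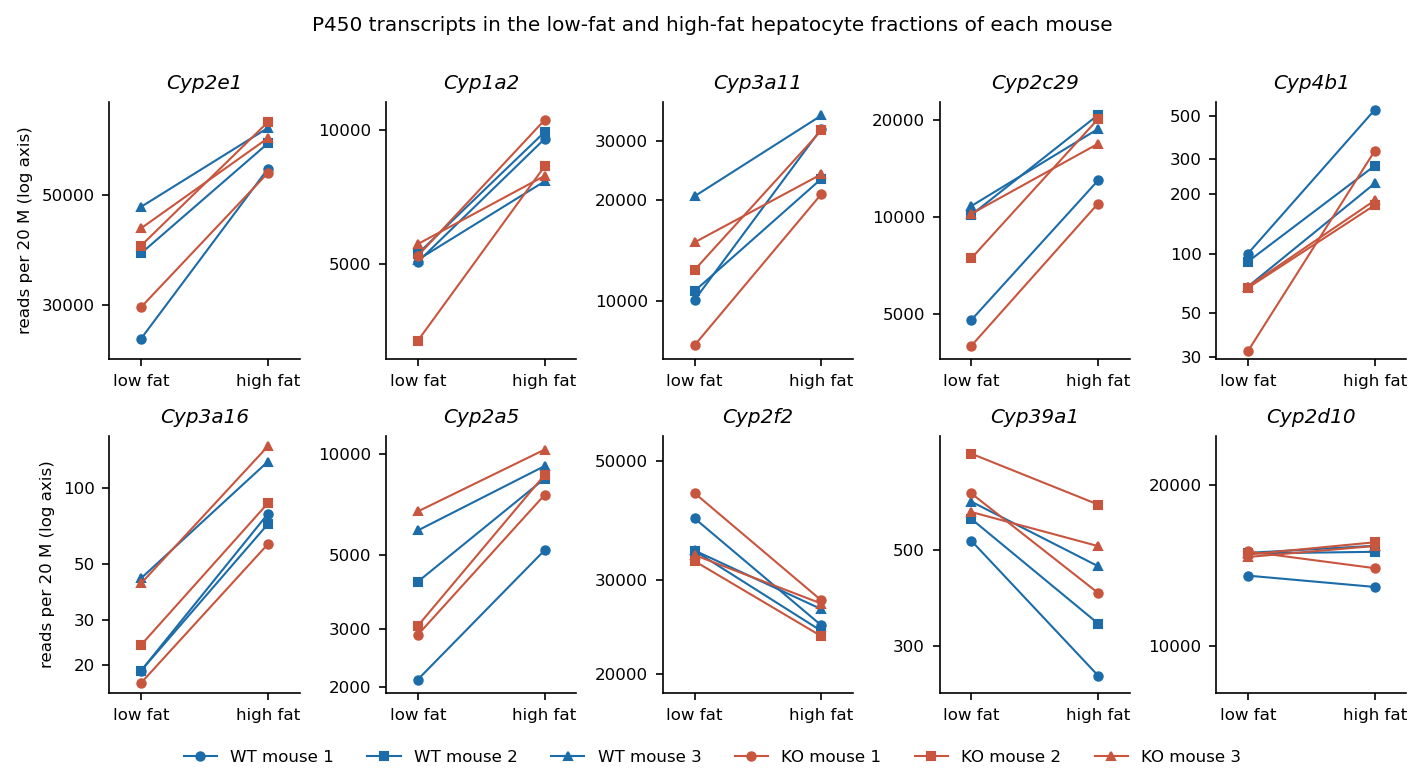
Reads per 20 M (log axis) of 10 P450 genes in the low-fat and high-fat library of each mouse, joined by a line for each mouse, WT in blue and KO in red. Cyp2e1, Cyp1a2, Cyp3a11, Cyp2c29, Cyp4b1, Cyp3a16 and Cyp2a5 rose in 6 of 6 mice, Cyp2f2 and Cyp39a1 were lower in 6 of 6, and Cyp2d10 lines cross within a narrow range.

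The P450 genes listed as pericentral from background knowledge of liver zonation (Cyp2e1, Cyp1a2, Cyp7a1, Cyp27a1, Cyp2c29, Cyp2c37, Cyp2c50, Cyp2c54, Cyp2a5 and Cyp3a11) all had positive log2 fold changes, with a median of 0.85. Without the block 4 of these 10 were called higher, and with the mouse block all 10 were. Cyp1a2, which oxidizes caffeine and aromatic amines, had 5054, 5270 and 5111 reads per 20 M in WT low-fat and 9545, 9890 and 7666 in WT high-fat libraries. In KO it had 5214, 3363 and 5543 in low-fat and 10523, 8282 and 7887 in high-fat libraries. The fractions did not overlap, and the log2 fold change of Cyp1a2 was 0.82 (SE 0.129, adjusted p = 0.0048). Cyp2a5, a coumarin hydroxylase, ranged from 2112 to 6731 in low-fat and from 5152 to 10310 in high-fat libraries. Its fractions overlapped, while 6 of 6 mice had more in high-fat, and its log2 fold change of 1.02 passed with the mouse block only (adjusted p = 0.0043). Markers that are not P450 genes moved alongside. The 7 other pericentral markers (such as Glul, Oat and Rgn) had positive values, 2 of them called without and 5 with the block, and the 7 other periportal markers (such as Hal, Sds and Gls2) had negative values, 3 called without and 5 with the block. The part of zonation in the P450 differences was not tested.

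In the Cyp3a subfamily, whose enzymes hydroxylate drugs, steroids and bile acids, 3 members that follow each other in the order of members along chromosome 5 rose. Cyp3a11 had 10052, 10689 and 20486 reads per 20 M in WT low-fat and 32572, 23095 and 35675 in WT high-fat libraries, and 7364, 12355 and 14931 against 20794, 32190 and 23831 in KO. As deposited, its highest low-fat library (20486) lay just below its lowest high-fat library (20794). After rescaling that low-fat library lay above that high-fat one, while within each genotype the fractions did not overlap. The log2 fold change was 1.14 (SE 0.233, adjusted p = 0.016). The far less abundant Cyp3a16 and Cyp3a44 had 17 to 44 and 16 to 47 reads per 20 M in low-fat and 60 to 146 and 49 to 160 in high-fat libraries. Their log2 fold changes were 1.69 (SE 0.321, adjusted p = 0.011) and 1.47 (SE 0.345, adjusted p = 0.028). Cyp3a16 passed in all 12 fits that left out a library and Cyp3a44 in 5. Cyp3a25 (log2 fold change 0.09) and Cyp3a59 (0.17) did not pass. Cyp3a13, the first of the 7 Cyp3a members in that order, was lower by a log2 of -0.21 with the mouse block only (adjusted p = 0.021).

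The Cyp2c subfamily, epoxygenases of arachidonic acid and drug hydroxylases, had a median log2 fold change of 0.85 over its 13 tested members, with 11 positive. Cyp2c29 had 4786, 10148 and 10819 reads per 20 M in WT low-fat and 12998, 20769 and 18792 in WT high-fat libraries, and 3979, 7441 and 10236 against 11016, 20176 and 16900 in KO. As deposited its fractions did not overlap, while after rescaling they overlapped in KO mice. Cyp2c29 was the only Cyp2c gene called without the block (log2 fold change 1.09, SE 0.28, adjusted p = 0.043). It passed in 4 of 12 fits leaving out a library. With the mouse block Cyp2c37, Cyp2c38, Cyp2c50, Cyp2c54 and Cyp2c67 rose as well, by a log2 of 0.70 to 0.99, and Cyp2c44 fell by 0.26 (adjusted p = 0.045). In RefSeq order along chromosome 19, 14 of the 15 Cyp2c genes were matched by symbol. The unmatched gene is Cyp2c44, which fell. Of the 12 matched genes that were tested, 11 had positive values. The exception, Cyp2c70, is the last of the row and had a log2 fold change of -0.03 (SE 0.137).

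**Figure D3:**
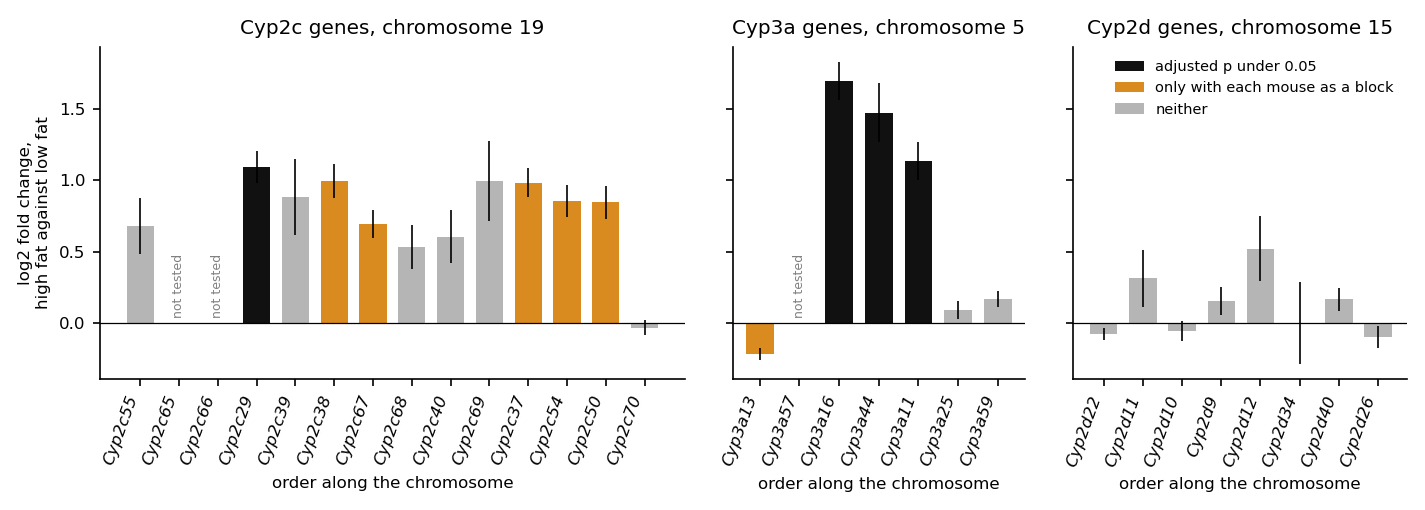
Log2 fold change, high-fat against low-fat (vertical axis), of Cyp2c, Cyp3a and Cyp2d genes in their order along the chromosome (horizontal axis), with standard errors of the fit with the mouse block; black bars passed without the block, orange bars only with it, grey bars in neither fit. Cyp2c bars lie between 0.53 and 1.09 except Cyp2c70 (-0.03), high Cyp3a bars (Cyp3a16, Cyp3a44, Cyp3a11) stand side by side, and Cyp2d bars are grey. Cyp2c44, which fell, was not matched by symbol and is not shown.

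Reads of close relatives may not be separable. Of windows of 50 bases along the longest transcript, over 25% were also found exactly in a transcript of another gene for 21 of the 94 members, and over 50% for 3 of them, Cyp2c40 (72.1%), Cyp2c69 (54.8%) and Cyp2c67 (52.8%). The read assignment of these 21 is uncertain, including Cyp2a4 and Cyp2a5 (38.0% and 40.8%), Cyp2c37, Cyp2c50 and Cyp2c54 (30.1%, 30.7% and 25.7%), Cyp4a10 and Cyp4a32 (30.5% and 46.8%) and Cyp3a44 (26.4%). Of the 26 genes that passed with the mouse block, 9 are among them. Cyp2e1, Cyp2f2 and Cyp1a2 are not.

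The 2 steepest rises outside the drug-metabolizing subfamilies were those of Cyp4b1, a fatty acid hydroxylase, and Cyp26b1, which degrades retinoic acid. Cyp4b1 had 100, 91 and 68 reads per 20 M in WT low-fat and 536, 279 and 227 in WT high-fat libraries, and 32, 67 and 68 against 332, 176 and 186 in KO. No low-fat library reached a high-fat one, and the log2 fold change was 1.91 (SE 0.247, adjusted p = 0.0029), the largest of the 71. Cyp26b1 had 48, 130 and 39 in WT low-fat and 290, 407 and 89 in WT high-fat libraries, and 12, 135 and 30 against 63, 309 and 67 in KO. Its fractions overlapped because mice differed, but 6 of 6 mice rose, and its log2 fold change of 1.59 passed with the mouse block only (adjusted p = 0.0047). The differences of both genes were largest in mouse 1 of each genotype. For Cyp4b1 the log2 difference was 2.31, 1.64 and 1.60 in WT mice 1 to 3 and 3.13, 1.35 and 1.44 in KO mice 1 to 3. The summed stellate, Kupffer and endothelial markers differed by 2.66, 1.58 and 1.17 and by 3.49, 1.55 and 1.40 in the same mice. Cyp26b1 differed by 2.45, 1.67 and 1.04 and by 2.06, 1.17 and 1.13. Other members also had their largest WT difference in mouse 1 and their smallest in mouse 3. Cyp3a11 differed by 1.60, 1.15 and 0.69 in WT and by 1.32, 1.37 and 0.69 in KO mice. Cyp2c29 differed by 1.35, 1.07 and 0.69 and by 1.30, 1.43 and 0.74. Cyp2e1 differed by 1.04, 0.78 and 0.42 and by 0.73, 0.82 and 0.62. In KO these 3 genes were highest in mouse 2, unlike the marker sum. Cyp3a16 differed by 1.86, 1.85 and 1.38 and by 1.54, 1.76 and 1.77, and Cyp1a2 by 0.82, 0.95 and 0.47 and by 0.84, 1.29 and 0.53. The part of non-hepatocyte transcripts in these differences was not tested, since the marker level does not overlap between the fractions.

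Of the 6 genes of bile acid and sterol metabolism, 1 fell without the block, and 2 rose and 1 fell with it. Cyp39a1, an oxysterol hydroxylase, had 526, 591 and 648 reads per 20 M in WT low-fat and 256, 338 and 459 in WT high-fat libraries, and 677, 837 and 613 against 398, 638 and 511 in KO. As deposited, the fractions did not overlap in WT. In KO the high-fat library of mouse 2 lay above the low-fat library of mouse 3. After rescaling, the KO fractions did not overlap either. Cyp39a1 fell in 6 of 6 mice, and the log2 fold change was -0.68 (SE 0.164, adjusted p = 0.033). It passed in 3 of 12 fits that left out a library, and with the marker covariate, which does not overlap between fractions, its value was 0.09. Cyp7a1, the rate-limiting enzyme of bile acid synthesis, ranged from 734 to 3778 in low-fat and from 1383 to 4645 in high-fat libraries. It rose within 6 of 6 mice, with a log2 fold change of 0.66 (adjusted p = 0.017 with the mouse block, not called without it). Cyp27a1, which oxidizes the sterol side chain, ranged from 4348 to 6574 in low-fat and from 7125 to 8788 in high-fat libraries, and passed with the mouse block only (log2 fold change 0.47, adjusted p = 0.0054). Cyp8b1, which sets the share of cholic acid, Cyp7b1, the oxysterol hydroxylase of the alternative pathway, and Cyp46a1 had log2 fold changes of -0.13, 0.22 and 0.06 and did not pass.

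Among the other small groups, the dioxin receptor target Cyp1a1 had 5 to 13 reads per 20 M in low-fat and 15 to 27 in high-fat libraries (log2 fold change 0.94, adjusted p = 0.048 with the mouse block only). Cyp1b1, the third gene of that group, had at most 3 reads per 20 M. Cyp17a1, the hydroxylase and lyase of steroid synthesis, ranged from 135 to 578 in low-fat and from 110 to 348 in high-fat libraries and fell in 6 of 6 mice, by a log2 of 0.64 (adjusted p = 0.0041 with the mouse block only). Cyp21a1 (log2 fold change -0.26) did not pass, and Cyp11b2 was at 0 in all but 2 libraries. Of the retinoid and vitamin D genes, Cyp26a1 (0.29) and the vitamin D hydroxylase Cyp2r1 (-0.06) did not pass. Cyp2u1, a fatty acid hydroxylase, fell by a log2 of 0.32 with the mouse block only (adjusted p = 0.025).

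Several abundant subfamilies gave no call. None of the 8 Cyp2d genes passed with or without the block, and their median log2 fold change was 0.08. The largest value was that of Cyp2d12 (0.52, SE 0.274). Cyp2d10 had 13550, 14904 and 14942 reads per 20 M in WT low-fat and 12908, 15012 and 15406 in WT high-fat libraries, and 15032, 14842 and 14681 against 13992, 15640 and 15393 in KO, with overlapping fractions and a log2 fold change of -0.05 (SE 0.082). The same held for Cyp2d26 (-0.10, SE 0.101) and Cyp2d9 (0.16, SE 0.152). None of the 8 tested Cyp4f genes, which hydroxylate leukotrienes and long-chain fatty acids, passed (median -0.01). The most abundant of them, Cyp4f13, Cyp4f14 and Cyp4f15, had values of -0.04, -0.17 and -0.05. None of the 3 tested Cyp2j genes passed either, with Cyp2j5 at -0.11, Cyp2j6 at -0.06 and Cyp2j9 at 0.29, nor did Cyp20a1 (0.16). Cyp2a12 (-0.16, SE 0.11) and Cyp4v3 (-0.24) were lower in 6 of 6 mice without passing. Of the 4 tested Cyp4a genes, fatty acid hydroxylases and targets of the receptor Ppara, Cyp4a10 (0.36) and Cyp4a32 (0.31) rose with the mouse block only (adjusted p = 0.027 and 0.032), and Cyp4a14 (0.24) and Cyp4a31 (0.00) did not pass.

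Genes known from background as sex-biased in mouse liver were also counted, since the labels give no sex. Of 10 tested female-biased P450 genes, 1 of which (Cyp3a41a) is outside the name rule, 9 had positive values (median 0.84), with 3 called higher without the block, 4 higher and 1 lower with it. Of 5 male-biased ones, 4 had positive values (median 0.22), with 0 called without and 1 lower with the block. The 3 called were Cyp3a16, Cyp3a44 and Cyp3a41a, and the 1 male-biased gene lower with the block was Cyp2u1.

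Among genes that serve P450 enzymes, of 7 electron transfer partners, 0 were called without the block, and with it 2 rose and 1 fell. P450 oxidoreductase, Por, had a log2 fold change of 0.33 (adjusted p = 0.015 with the mouse block only), and the abundant Pgrmc1 and Cyb5b had values of -0.02 and 0.01. Of 12 genes of heme synthesis and breakdown, heme oxygenase Hmox1 (1.33, adjusted p = 0.047) and biliverdin reductase Blvrb (0.50, adjusted p = 0.036) rose, both in 6 of 6 mice. Hmox1 went from 87 to 629 reads per 20 M in WT mouse 1 and from 80 to 439 in KO mouse 1, while the other 4 mice had 73 to 133 in low-fat and 147 to 190 in high-fat libraries. The mice numbered 1 are those with Kupffer marker sums of 11426 and 9919 in high-fat, and the part of Kupffer cells in the Hmox1 value was not tested. Alas1, the first enzyme of heme synthesis, and Cpox had values of 0.09 and 0.09 and did not pass. Of 17 regulators, the dioxin receptor Ahr rose (0.69, adjusted p = 0.043). With the mouse block the drug receptor Nr1i3 rose too (0.70, adjusted p = 0.028) and Hnf4a fell by 0.28 (adjusted p = 0.032), while Rxra (-0.18) did not pass. None of the 6 tested epoxide hydrolases and flavin monooxygenases passed, with Fmo5 at 0.01 and Ephx2 at -0.07.

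Within single genotypes the same comparison had fewer libraries. In WT mice 0 of 71 P450 genes passed, without or with the block (0.0% of all genes in both fits), although 14 and 30 had an unadjusted p under 0.05 in the 2 limma fits (11.2% and 19.4% of all genes did) and the smallest adjusted p with the block was 0.055. With a same-mouse correlation in place of the block, 7 passed in WT (9.86%, against 2.47% of all genes). The WT count with the block also depended on the rescaling, as given in the section on processing. In KO mice 1 gene passed, Cyp4b1, higher in high-fat (1.41%, against 0.839% of all genes, of which 0.809% higher and 0.0302% lower). With the block 14 did (19.7%, against 1.7%), 13 higher and 1, Cyp17a1, lower, where all genes gave 1.31% and 0.392%. After TMM rescaling, libraries of the fractions did not overlap for 11 P450 genes in WT (15.5%, against 17.4% of all genes), 9 higher and 2 lower, where all genes gave 9.62% and 7.78%. In KO they did not for 14 (19.7%, against 13.4%), 12 higher and 2 lower, where all genes gave 7.82% and 5.58%. Log2 fold changes were positive for 48 of 71 in each genotype (47.4% of all genes in WT, 43.1% in KO). Cyp4b1 did not pass without any 1 of the 6 KO libraries, and with the block 0 P450 genes passed without KO mouse 2 or without KO mouse 3, and 9 without KO mouse 1. A gene that passed in KO and not in WT is not thereby shown to differ. The test of that difference, the interaction of genotype and fraction, called 0 P450 genes and 0.0% of all genes. In limma, 0 P450 genes had an unadjusted p under 0.05 without the block and 1 did with it, Cyp17a1 (-0.38). For Cyp2e1 the interaction was -0.03 (SE 0.329), for Cyp2f2 0.03 (SE 0.209), for Cyp4b1 0.13 (SE 0.494) and for Cyp39a1 0.30 (SE 0.329), all on the log2 scale. Of the 71 genes, 63 had the same sign in WT and KO mice. The share over all genes was not counted, so this is not read as particular to P450 genes.

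**Figure D4:**
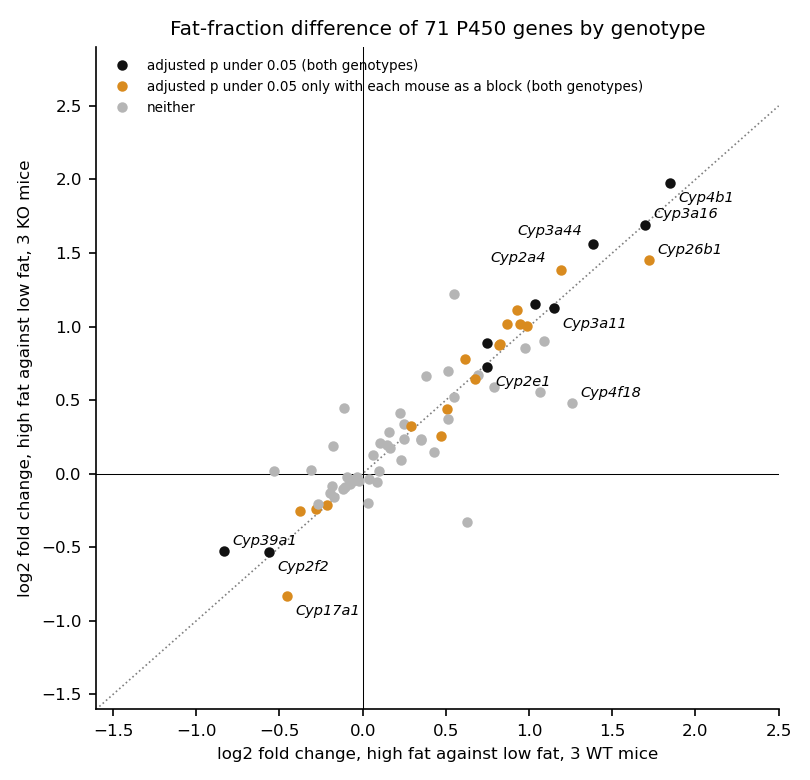
Log2 fold change, high-fat against low-fat, of the 71 P450 genes tested, in the 3 WT mice (horizontal axis) and in the 3 KO mice (vertical axis); the dotted line marks equal values. Black and orange points passed over both genotypes without the block or only with it. They lie near the dotted line, from Cyp39a1 (-0.83 in WT, -0.53 in KO) to Cyp4b1 (1.85 and 1.98). These genes were called on the average of both genotypes, so their nearness to the line is not a test of agreement between genotypes.

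Between genotypes no P450 gene passed. In the low-fat libraries, in the high-fat libraries and in the mean of both fractions, 0 of 71 were called, where 1 of the 16563 genes was (0.00604% in each). At an unadjusted p under 0.05, limma gave 2, 2 and 3 P450 genes in the 3 comparisons, beside 1.73%, 2.02% and 2.19% of all genes. After rescaling, libraries of the genotypes did not overlap for 3 P450 genes in low-fat (4.22%, against 5.43% of all genes), 1 higher and 2 lower in KO, where all genes gave 2.43% and 3.01%. In high-fat they did not for 2 (2.82%, against 5.17%), 1 higher and 1 lower, where all genes gave 2.11% and 3.06%. Mean log2 levels of mice did not for 3 (4.22%, against 6.36%), 1 higher and 2 lower, where all genes gave 2.54% and 3.82%. The median log2 fold change, KO against WT over both fractions, was 0.04, against -0.01 for all genes. Cyp4a31, a fatty acid hydroxylase, had 51, 95 and 108 reads per 20 M in WT low-fat and 41, 104 and 148 in WT high-fat libraries, and 213, 240 and 169 and 175, 222 and 233 in the KO libraries. No KO library was as low as any WT library, and the log2 fold change over both fractions was 1.30 (SE 0.347, unadjusted p = 0.0067, adjusted p = 1.0). The 4 tested Cyp4a genes all had positive values in both fractions, with a median of 0.92 in low-fat and 0.80 in high-fat libraries. Cyp4a12a (-0.10, SE 0.392) and Cyp4a12b (-0.43, SE 0.548), of the same subfamily but outside the name rule, had negative values over both fractions. Cyp4b1 (-0.60, SE 0.211) and Cyp2j6 (-0.26, SE 0.10) had mean log2 levels that were lower in every KO mouse than in any WT mouse, also without passing. Over both fractions, endothelial markers were lower in KO mice in 8 of 8 cases (median -0.57) and Kupffer markers in 9 of 9 (median -0.46), with 0 called. Stellate markers were lower in 7 of 8 (median -0.23). The Kupffer median was -0.80 in low-fat but -0.10 in high-fat libraries, where 2 of 9 were higher. Stellate markers had medians of -0.47 and 0.01, with 4 higher and 4 lower in high-fat. Endothelial markers were lower in 8 of 8 in each fraction (medians -0.69 and -0.45). With the summed marker level as a covariate the Cyp4b1 value went from -0.60 to -0.14 over both fractions and from -0.67 to -0.17 in low-fat libraries. The part of non-hepatocyte transcripts in the genotype difference of Cyp4b1 was not tested. The listed pericentral P450 genes had a median of -0.05, and 7 of the 8 pericentral markers, all but Cyp2e1, had negative values (median of the 8 -0.56), 0 of them called.

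P450 levels varied between mice more than those of most genes. The SD between mice of a genotype, on the log2 scale, had a median of 0.44 over the 71 P450 genes and 0.18 over all genes tested, and it was above 1 for 11 P450 genes. Cyp4a14, a Ppara target, had 429, 2965 and 5980 reads per 20 M in the low-fat libraries of WT mice 1 to 3 and 495, 3476 and 8333 in their high-fat libraries. In KO mice 1 to 3 it had 1661, 9775 and 3890 in low-fat and 1710, 13234 and 5086 in high-fat libraries. Both fractions of a mouse were close, and the means of mice lay up to 15.5-fold apart in WT and 6.83-fold in KO. Cyp2b9, a female-biased gene, was 31.8-fold apart between KO mouse 2 (1016 and 2228) and KO mouse 1 (57 and 45). Cyp26a1, which degrades retinoic acid, had 1094 and 1098 in WT mouse 2 and 1082 and 884 in KO mouse 2, while the other 4 mice had 95 to 344. Cyp2j5, the member with the smallest SD between mice (0.09), had 10630 to 12817 over all 12 libraries, and 16 members had an SD below 0.2.

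**Figure D5:**
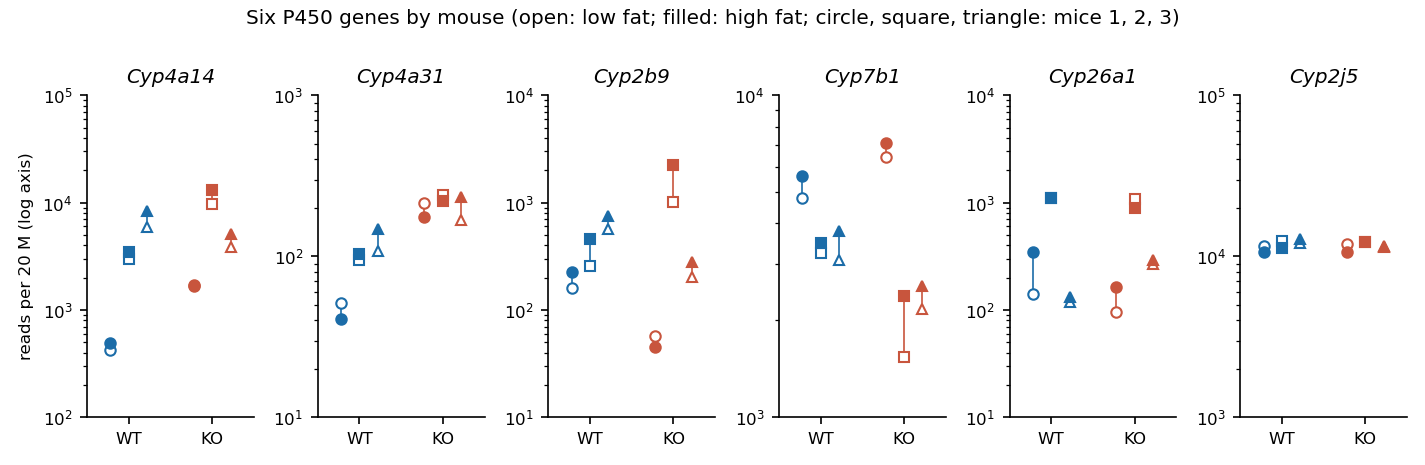
Reads per 20 M (log axes) of 6 P450 genes in each mouse, WT in blue and KO in red, with open symbols for low-fat and filled symbols for high-fat libraries of mice 1 (circles), 2 (squares) and 3 (triangles). Cyp4a14, Cyp2b9, Cyp26a1 and Cyp7b1 separate mice more than fractions, the KO libraries of Cyp4a31 (169 to 240) lie above the WT libraries (41 to 148), and Cyp2j5 stays between 10630 and 12817.

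The mouse with the lowest mean of its 2 libraries was mouse 1 of either genotype for 44 of the 71 P450 genes (61.97%), against 27.3% of all genes tested. WT mouse 1 was lowest for 30 and KO mouse 1 for 14. Among the 13 tested Cyp2c genes it was mouse 1 of either genotype for 12. Cyp2c68, for example, had 271 and 700 reads per 20 M in WT mouse 1 and 359 and 775 in KO mouse 1, where the other 4 mice had 1464 to 2126. Cyp7b1 went the other way, with 6451 and 7134 in KO mouse 1 against 1538 to 2557 in KO mice 2 and 3. Leaving out both mice numbered 1, 29 P450 genes passed with the mouse block over both genotypes (40.8%, against 7.12% of all genes), 16 in WT (22.5%, against 2.49%) and 26 in KO (36.6%, against 2.55%).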

How the data were processed

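RNA-seq of 12 hepatocyte libraries (2 fractions of 6 mice) was analysed from 1 deposited gene table. Its values are a score: judged from the values, the authors scaled each library's gene counts to 20 M and rounded up, since columns add up to just over 20 M and gaps among small values fit whole reads. The submitters' processing notes name the build mm9; aligner, counter, annotation and strandedness are not given in the sources used here. Depth was estimated from the spacing of low values (largest error 0.0044% on 5 simulated libraries).

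Because the values are not raw counts, a planned count test was replaced by limma 3.58.1 (R 4.3.3) with an intensity trend on log2(value + 2) after TMM rescaling, so fold changes understate those of low genes. The 16563 genes reaching 10 in 3 or more libraries were tested, with 4 group means in 1 fit and Benjamini-Hochberg adjustment over all of them. Comparisons over both genotypes average the genotypes' fraction differences; genotype means used the mean of each mouse's 2 libraries. The labels give both fractions of a replicate the same mouse name, and deviations from group means correlated at 0.498, 0.469 and 0.582 in WT mice and 0.044, -0.009 and 0.46 in KO mice, so the alternative fit with a term for each mouse is given where it changes calls. The scripts were tested on simulated data.

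Named genes were Cyp2e1 and Cyp2f2, the 3 most abundant members of each list, every called member, and per comparison the 3 largest rises and falls among members averaging at least 100 whose groups did not overlap (over both genotypes, with 1 direction in 6 mice). Overlap of groups was counted after rescaling, while printed levels are as deposited. Others (such as Cyp2c68, Cyp7a1 and genes called only with the block) were chosen after their values were seen. A part of the rule on protein identity was replaced by shared 50-base windows of GENCODE M21 transcripts. Members and lists were chosen with earlier results of these data known. Exon lengths came from GENCODE M21, matched by Ensembl identifier for 94 of 94 members. Alternatives covered rescaling, pseudocount, filters, same-mouse correlation, marker covariate, voom weights and leaving out each library.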

Additional observations from a re-analysis of the deposited data

How the results depend on the processing

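With the replicate block (a term for each mouse), the pairing by mouse raised the P450 genes called between fractions from 9 to 26 over both genotypes and from 1 to 14 in KO mice, and left 0 in WT mice. A same-mouse correlation gave 16 over both genotypes (12.1% of all genes), 8 in KO (3.28%) and 7 in WT (2.47%). The block with the deposited scaling gave 26, 18 and 15, and with median-of-ratios rescaling 25 over both genotypes and 16 in KO. Over both genotypes the marker covariate gave 0, and the other settings without the block gave 7 to 12. In KO alone, median-of-ratios rescaling and the deposited scaling each gave 2, and the marker covariate, voom weights and a fit of only the KO libraries each gave 0. Leaving out 1 library gave 5 to 12 calls over both genotypes (5 without KO low-fat replicate 1 or KO high-fat replicate 3), and 0 in KO without any of its 6 libraries. With the block, leaving out 1 mouse gave 19 to 33 over both genotypes (19 or 20 without a WT mouse, 33, 27 and 20 without KO mouse 1, 2 and 3) and 0 to 9 in KO (9 without mouse 1, 0 without mouse 2 or 3). Leaving out both mice numbered 1 gave 29, 26 in KO and 16 in WT. The share of all genes is not given for the rescaling, filter, pseudocount, voom and single leave-one-out settings. Their counts are therefore not read as particular to P450 genes.

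The P450 median between fractions was 0.16 with no filter and 0.37 with the marker covariate over both genotypes, against 0.29. It was 0.30 with the deposited scaling (also with the block) or voom weights and 0.35 with the covariate in WT, against 0.25, and 0.36 with the covariate in KO, against 0.24. Leaving out libraries or mice gave medians of 0.18 to 0.36 over both genotypes, 0.10 to 0.41 in WT and 0.15 to 0.44 in KO, with the block 0.224 to 0.299, 0.228 to 0.332 and 0.159 to 0.37, and 0.382 in KO without both mice numbered 1. The interaction median ran from -0.10 to 0.15, with -0.09 without WT high-fat replicate 1 and -0.10 without KO low-fat replicate 1. Genotype medians ran from -0.08 to 0.16 when libraries were left out. With the covariate Cyp39a1 reversed to 0.087. No setting called a P450 gene between genotypes or in the interaction. Between genotypes, mice share by the labels only a replicate number. Same-numbered libraries correlated at 0.251, 0.396 and 0.296 in low-fat and 0.49, -0.171 and 0.381 in high-fat. A term for the number raised P450 genes at an unadjusted limma p under 0.05 from 2, 2 and 3 to 6, 6 and 9. All genes went from 1.73%, 2.02% and 2.19% to 3.24%, 3.93% and 3.98%. For single genes, 1678 of 1871 alternative values kept the call, 137 gained a call, 55 lost one and 1 was reversed. The sign changed in 85 values where neither value passed, and these are not counted as reversed. Members under about 4 reads per 20 M are within the counting floor.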

Other observations

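Some P450 genes fall outside the name rule because their names end in a letter. Cyp3a41a, a female-biased Cyp3a gene, averaged 17.2 reads per 20 M and had a log2 fold change of 1.34 between fractions (SE 0.272, adjusted p = 0.015, higher in 6 of 6 mice). The male-biased fatty acid hydroxylases Cyp4a12a and Cyp4a12b averaged 2949 and 1402 and had values of 0.22 and 0.27, higher in 5 of 6 mice and without passing.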
